A study of Mus musculus with 30 samples.

Results

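Cartilage resists compression through proteoglycans held in a network of collagen fibrils, and further proteins link the parts of this matrix. The genes Acan, Hapln1, Matn1, Matn3, Comp, Cnmd, Ucma, Snorc and Cytl1 encode proteins of this matrix or its cells other than collagen and were followed by name through the repair of a broken tibia, as 9 of the 55416 gene IDs counted. They were chosen by their known products and not by a threshold on these data, but with earlier results of these data known. Total RNA of the fracture callus was sequenced from 30 mice, broken at 7 to 12 weeks of age by a closed, non-stabilized fracture in the shaft of the left tibia. The paper describes the 3-dpf tissue as tibia dissected around the fracture site and the 6-dpf tissue as whole callus. The P-Apex1KO mice carried Prrx1-Cre and 2 conditional Apex1 alleles (Prrx1-Cre+;Apex1C/C). The WT mice were littermates of 3 genotypes, Prrx1-Cre+/-;Apex1C/+, Apex1C/C and Apex1C/+, so some of them carried the Cre with 1 conditional allele. Prrx1-Cre acts in limb bud mesenchyme and its descendants, so blood, endothelial and muscle fibre nuclei of the callus keep Apex1. There were 4 WT and 4 P-Apex1KO mice at 3 days post-fracture (3-dpf), 5 and 3 at 6-dpf, 4 and 3 at 10-dpf, and 4 and 3 at 14-dpf.

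A callus first fills with soft cartilage, which then enlarges, mineralizes and is replaced by bone. In that cartilage aggrecan (Acan), a proteoglycan loaded with chondroitin sulfate, binds hyaluronan through link protein (Hapln1) and draws in water. Matrilins (Matn1, Matn3) and cartilage oligomeric matrix protein (Comp) tie proteoglycans to the collagen fibrils. Chondromodulin (Cnmd) opposes vessel growth, Ucma is a vitamin K-dependent secreted protein rich in Gla residues, Snorc is a membrane-bound chondroitin sulfate proteoglycan, and Cytl1 is a small secreted protein made by chondrocytes.

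Between 18334389 and 43111491 reads per library were counted on genes. Levels are given as CPM, counts scaled to a common library total, after TMM scaling of all 30 libraries together, and SE is the SE of a log2 fold change. Apex1, the targeted gene, measured 20.7 to 28.9 CPM in WT and 15.1 to 15.9 CPM in P-Apex1KO mice at 6-dpf, and its groups were also separate at 10- and 14-dpf (log2 fold changes -0.65, adjusted p = 0.0278, and -0.29, adjusted p = 0.367, in edgeR). At 3-dpf the library labelled P-Apex1KO replicate 4, with 34.6 CPM, lay above every WT library, whose highest value was 33.1 CPM, so 3-dpf libraries are named here by their labels. At 14-dpf all 3 P-Apex1KO mice were female and 1 of 4 WT mice was, and that WT female, replicate 1, stood apart from the other WT mice in the genes described. Skeletal muscle markers differed with genotype as well: their summed level was 3700 to 6792 CPM in WT and 8784 to 20239 CPM in P-Apex1KO mice at 6-dpf. There 12 of 14 genes were higher, against 5.31% of all genes. The sum was 4136 to 5862 CPM in WT and 5952 to 14226 CPM in P-Apex1KO-labelled libraries at 3-dpf. At 10-dpf it was 1427 to 4458 CPM in WT and 3952 to 8736 CPM in P-Apex1KO mice, and 0 of the 14 genes passed at 3- or 10-dpf. The part of muscle RNA in the results below was not tested. In RNA of whole callus, fewer chondrocytes and less RNA per chondrocyte cannot be told apart.

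To show the DNA in front of genes that moved together and of the one that did not, the 250 bases before the annotated start of Acan, Ucma and Cytl1 are printed 5′ to 3′ on the gene's strand, from GRCm39. These 3 windows hold no annotated exon. Capitals mark TGTGGT, the core recognized by RUNX factors, on either strand.
Acan, chr7:78702714-78702963, plus strand: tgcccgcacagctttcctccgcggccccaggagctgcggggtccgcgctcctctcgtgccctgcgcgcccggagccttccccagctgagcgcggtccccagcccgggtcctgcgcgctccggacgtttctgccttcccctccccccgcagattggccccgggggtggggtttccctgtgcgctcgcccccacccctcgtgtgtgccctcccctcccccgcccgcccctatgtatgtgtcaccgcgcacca
Ucma, chr2:4980675-4980924, plus strand: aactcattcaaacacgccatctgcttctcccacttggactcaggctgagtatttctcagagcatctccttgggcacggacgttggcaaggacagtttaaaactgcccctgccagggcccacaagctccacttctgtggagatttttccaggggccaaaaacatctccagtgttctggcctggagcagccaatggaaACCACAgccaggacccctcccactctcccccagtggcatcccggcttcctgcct
Cytl1, chr5:37892613-37892862, plus strand: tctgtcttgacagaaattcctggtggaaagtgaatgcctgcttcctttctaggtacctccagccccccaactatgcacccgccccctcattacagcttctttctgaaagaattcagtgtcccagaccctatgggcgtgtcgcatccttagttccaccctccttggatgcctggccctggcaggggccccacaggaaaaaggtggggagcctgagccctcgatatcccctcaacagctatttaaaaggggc
The SOX-type letters ACAAT or ACAAAG, searched on both strands, stood in the window of 1 of the 9 genes (Comp), against 38.1% of 21757 windows of protein-coding genes. TGTGGT stood in 2 of 9 (Matn1 and Ucma), against 13% of all windows, and the match in Ucma, read on the opposite strand, began 54 bases before the start. The Acan window was 74.4% G and C, above the upper quartile of all windows (60.8%), and the Cytl1 window, at 54.8%, was near their median of 53.2%. The windows of Hapln1, Matn1, Comp and Snorc overlap annotated exons, and those of Hapln1 and Matn1 lie inside the annotated gene. The Matn1 and Comp matches thus stand in windows that are not free of exons. Matches are a description of these letters alone, and a window without them says nothing of binding elsewhere.

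In the WT callus, 8 of the 9 genes were nearly silent or low at 3-dpf, highest at 6- or 10-dpf, and low again at 14-dpf. The share of all counted reads that fell on the 9 genes was 0.0242% to 0.0263% at 3-dpf, 0.886% to 1.37% at 6-dpf, 0.541% to 1.3% at 10-dpf and 0.0312% to 0.192% at 14-dpf. In P-Apex1KO mice the share reached 0.149% to 0.295% at 6-dpf, 0.651% to 0.968% at 10-dpf and 0.205% to 0.355% at 14-dpf. The genotypes were therefore separate at 6-dpf with WT higher, overlapped at 10-dpf and were separate at 14-dpf with P-Apex1KO higher.

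**Figure D1:**
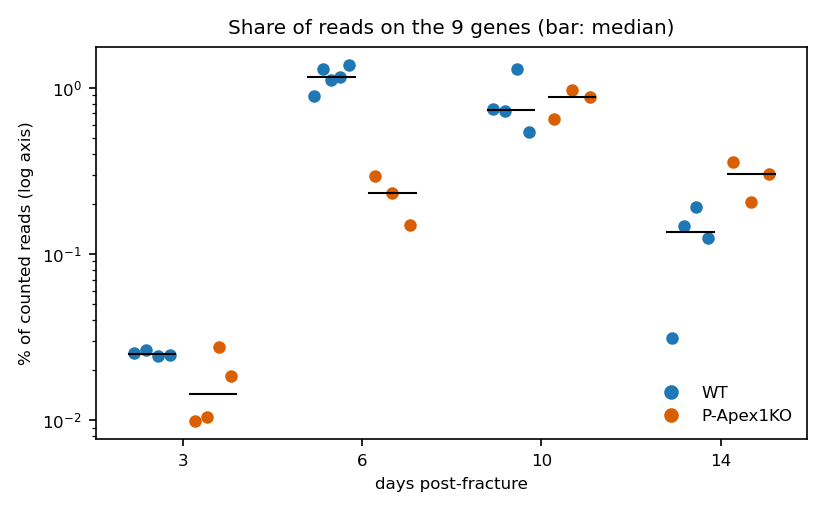
Percentage of counted reads on the 9 genes in each mouse (log axis) by days post-fracture; points are mice and bars are medians. WT mice held 0.886% to 1.37% at 6-dpf and P-Apex1KO mice 0.149% to 0.295%, whereas at 14-dpf P-Apex1KO mice, at 0.205% to 0.355%, lay above all WT mice.

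Compared per kilobase of exon, the order of the genes was much alike in both genotypes. At 6-dpf in WT, mean levels ran from 811.6 CPM per kilobase for Comp and 705.4 for Acan through 434.6 for Hapln1, 329.3 for Matn3, 224.7 for Cnmd, 201.8 for Ucma and 104.5 for Snorc to 16.2 for Matn1 and 3.34 for Cytl1. In P-Apex1KO mice Comp (192.1 CPM per kilobase), Acan (126.5) and Hapln1 (51.2) were again the most abundant, and Matn1, at 0.486, had passed below Cytl1, at 8.72. Across the 8 groups of mice, the WT mice at 6-dpf had the highest mean CPM for 6 genes. Exceptions were Comp, whose P-Apex1KO mean at 10-dpf (2461 CPM) overlapped that of WT at 6-dpf (2421 CPM), Snorc, whose groups at 10-dpf averaged 108 CPM in WT and 107.9 CPM in P-Apex1KO with the 6-dpf WT mice overlapping them, and Cytl1, which was highest in P-Apex1KO mice at 14-dpf (15.6 CPM).

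At 3-dpf no difference between genotypes passed for these genes. Matn1, Ucma and Snorc had at most 6 reads in any library and were below the filter on low counts, and the other 6 were tested. Acan measured 149.5, 147, 139.5 and 134.2 CPM in WT and 53.8, 53.6, 169 and 96.8 CPM in the libraries labelled P-Apex1KO, so 3 of the latter lay below all WT libraries and 1 above. Its log2 fold change was -0.58 with an SE of 0.30, and its adjusted p was 0.851 in edgeR's quasi-likelihood test. Over the 6 genes, log2 fold changes lay between -0.90 for Cnmd and -0.13 for Cytl1. All libraries labelled P-Apex1KO lay below all WT libraries for none of the 9 genes, against 1.7% of all genes tested. Over all genes 0 of 19866 were called at this day (0%), with 1216 at an unadjusted p under 0.05, and DESeq2 called 85.

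From 3- to 6-dpf the cartilage matrix genes rose steeply in both genotypes. The tissue taken was described differently on these days, so dissection and time cannot be told apart in any comparison between them. Of the 6 genes that passed the filter on low counts at 3-dpf, 5 rose in WT, all but Cytl1, against 15.4% of all genes, and 6 in P-Apex1KO mice, against 7.1%. Matn1, Ucma and Snorc entered this fit only through the 6-dpf mice, in which they were high, so their calls had to come out as a rise. The rise of Acan was 5.20 on the log2 scale in WT (SE 0.33, adjusted p = 8.41e-08) and 3.41 in P-Apex1KO (0.32, adjusted p = 2.3e-05). Hapln1 rose by 8.99 in WT and 6.60 in P-Apex1KO on the log2 scale, Matn3 by 8.59 and 6.00, Comp by 4.96 and 3.35, and Cnmd by 9.60 and 8.19. The 3-dpf libraries held 0 to 6 reads of Matn1, Ucma and Snorc, so the size of their rise depends on the prior count and is not given. Cytl1 moved by 1.02 in WT (SE 0.53, adjusted p = 0.167) and rose by 2.45 in P-Apex1KO (0.60, adjusted p = 0.0155). The Cytl1 call in P-Apex1KO rested on replicate 1 at 6-dpf, without which the change was 1.42 (adjusted p = 0.0924) and the WT change, at 1.17, passed (adjusted p = 0.0464).

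Whether the rise was smaller in P-Apex1KO mice was tested as the change of the genotype difference from 3- to 6-dpf. Of the 6 genes that passed the filter at 3-dpf, the change passed for 2, Hapln1 (-2.38, SE 0.49, adjusted p = 0.0317) and Matn3 (-2.59, 0.50, adjusted p = 0.0253), against 0.987% of all genes. Matn1, with 0 to 3 reads at 3-dpf, was also called but is not counted. Acan came close (-1.79, 0.42, adjusted p = 0.0518). Deviations of same-numbered libraries correlated at 0.15 to 0.52 at 3-dpf and at -0.12 to 0.11 at 6-dpf. With the replicate number as a block neither Hapln1 (-2.23, adjusted p = 0.222) nor Matn3 (-2.58, adjusted p = 0.212) passed. Also, none of the 9 genes passed when WT replicate 2, 3 or 4 or the library labelled P-Apex1KO replicate 3 was left out at 3-dpf, or WT replicate 4 or P-Apex1KO replicate 3 at 6-dpf, and 1 passed without WT replicate 5 at 6-dpf.

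At 6-dpf 8 of the 9 genes were lower in P-Apex1KO mice than in WT, by 4.11- to 32.6-fold, against 5.61% of all 20260 genes tested that were lower. Over all genes 1137 were lower and 1075 higher, and with scaling to library size alone 814 were lower and 2780 higher, with the same 8 of 9 lower. The 2212 calls over all genes became 921 without WT replicate 2, 1466 without WT replicate 3, 890 without WT replicate 4 and 995 without P-Apex1KO replicate 1. For the same 8 genes every P-Apex1KO mouse lay below every WT mouse, against 11.9% of all genes. The median log2 fold change of the 9 genes was -2.98, and that of all genes 0.01. Cytl1 was the exception.

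Both partners of the aggrecan aggregate were lower. Acan (chromosome 7, 78702964 to 78764847 of GRCm39, plus strand) measured 3988, 5672, 4770, 5805 and 7050 CPM in WT and 1206, 1035 and 695 CPM in P-Apex1KO. The lowest WT mouse thus stood far above the highest P-Apex1KO mouse, and the log2 fold change was -2.44 (SE 0.26, adjusted p = 0.00106). Hapln1 (chromosome 13, 89686581 to 89759950, plus strand) measured 2375, 3499, 2809, 2968 and 3845 CPM in WT and 467.1, 378.2 and 250.9 CPM in P-Apex1KO. Its log2 fold change was -3.04 (0.25, adjusted p = 0.000419). Among P-Apex1KO mice replicate 3 was lowest for both.

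The adaptor proteins fell by unequal amounts. Matn1 (chromosome 4, 130670216 to 130682787, plus strand) measured 34.9, 58.1, 53.4, 42.3 and 50.9 CPM in WT and only 2.22, 0.524 and 1.56 CPM in P-Apex1KO. This was the largest fall among the 9 genes, with a log2 fold change of -5.03 (SE 0.38, adjusted p = 0.00041). Matn3 (chromosome 12, 8997929 to 9022028, plus strand), the other matrilin, measured 859.6, 1316, 1092, 1171 and 1498 CPM in WT and 215.1, 145.5 and 74.5 CPM in P-Apex1KO (log2 fold change -2.98, 0.33, adjusted p = 0.00143). Comp (chromosome 8, 70826192 to 70834716, plus strand), which binds collagens II and IX, had the smallest fall. It measured 1637, 2401, 2197, 2952 and 2917 CPM in WT and 746.4, 716.8 and 256.3 CPM in P-Apex1KO, and its log2 fold change was -2.04 (0.37, adjusted p = 0.0103).

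The other secreted and membrane proteins fell too, apart from Cytl1. Cnmd (chromosome 14, 79875120 to 79899615, minus strand) measured 322.8, 474.4, 459.7, 436.6 and 394.1 CPM in WT and 127.6, 66.6 and 34.1 CPM in P-Apex1KO. Its log2 fold change was -2.43 (SE 0.36, adjusted p = 0.00469). Ucma (chromosome 2, 4980925 to 4990559, plus strand), whose window was printed above, measured 109.2, 206.4, 161.3, 173.9 and 249.3 CPM in WT and 20.8, 6.56 and 10.5 CPM in P-Apex1KO, a log2 fold change of -3.80 (0.39, adjusted p = 0.0012). In both, the highest P-Apex1KO value was that of replicate 1. Snorc (chromosome 1, 87397772 to 87403204, plus strand) measured 61.1, 115.7, 84, 91.5 and 130.3 CPM in WT and 13.4, 6.96 and 8.57 CPM in P-Apex1KO, a log2 fold change of -3.28 (0.30, adjusted p = 0.000747).

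Cytl1 (chromosome 5, 37892863 to 37897329, plus strand) measured 4, 4.07, 4.52, 2.93 and 4.88 CPM in WT and 22.7, 6.64 and 2.65 CPM in P-Apex1KO at 6-dpf. The P-Apex1KO mice thus spread from below to above all WT mice, and the log2 fold change of 1.38 (SE 0.40) did not pass (adjusted p = 0.0582). It passed with DESeq2 (1.35, adjusted p = 0.00761), with scaling to library size alone (1.54, adjusted p = 0.0292), which moved the median of all genes to 0.20, and without P-Apex1KO replicate 3 (1.78, adjusted p = 0.00708). Without P-Apex1KO replicate 1, the highest mouse, it was 0.43 (adjusted p = 0.624), with the replicate block 0.85 (adjusted p = 0.578) and without the sex term 1.40 (adjusted p = 0.112), and with no filter on low counts its adjusted p was 0.248. Over all alternatives the adjusted p ran from 0.00708 to 0.624.

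**Figure D2:**
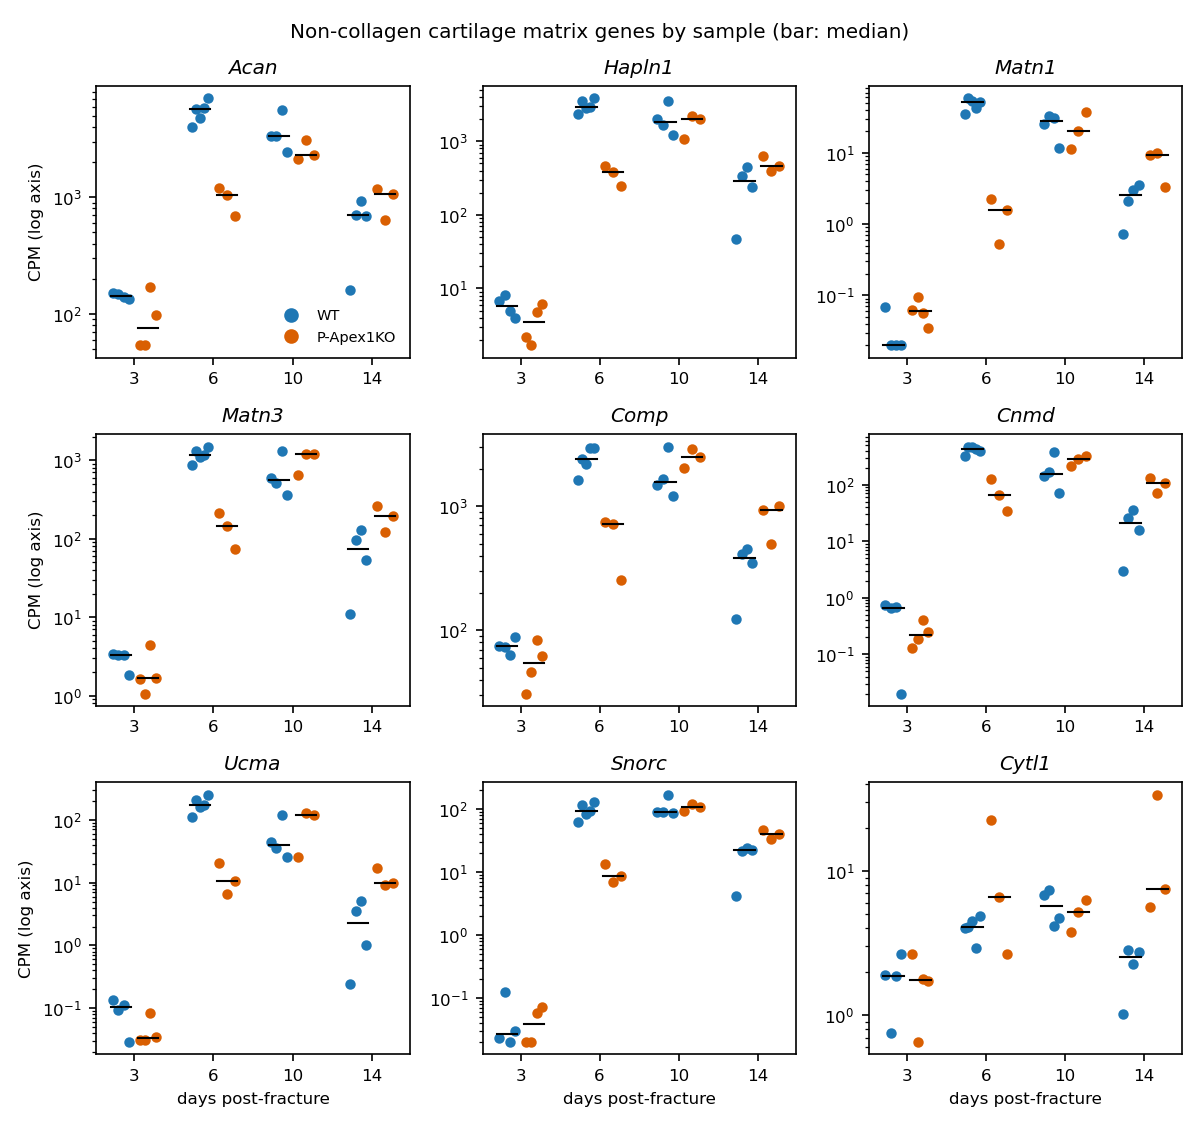
Level of each gene in CPM (log axis) in every mouse by days post-fracture; points are mice, bars are medians and libraries without a read are drawn at 0.02 CPM. At 6-dpf all P-Apex1KO mice lay below all WT mice for 8 genes, against 11.9% of all genes. At 14-dpf WT replicate 1 was the lowest WT mouse in every panel (Acan 160.6 CPM, next lowest 692.5 CPM).

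At 10-dpf none of the 9 genes differed between genotypes in edgeR's test, against 6.46% of all genes called. An unadjusted p under 0.05 was reached by 0 of the 9, against 4588 of 18910 genes. DESeq2 called 0 of the 9, against 2187 of 18910. Acan measured 3369, 3374, 5622 and 2447 CPM in WT and 2125, 3112 and 2303 CPM in P-Apex1KO, with a log2 fold change of -0.60 (SE 0.28, adjusted p = 0.229). Comp measured 1468, 1667, 3014 and 1205 CPM in WT and 2010, 2884 and 2490 CPM in P-Apex1KO (0.36, 0.28, adjusted p = 0.492). The groups overlapped for all 9 genes, and log2 fold changes lay between -0.60 and 0.45. WT replicate 3 was the highest and replicate 4 the lowest WT mouse for Acan, Hapln1, Matn3, Comp, Cnmd, Ucma and Snorc. Without WT replicate 4, Acan (-0.85, adjusted p = 0.0192) and Hapln1 (-0.76, adjusted p = 0.0147) were lower in P-Apex1KO mice, against 823 of 18674 genes. Without WT replicate 3, none passed, Acan was at -0.25, Comp at 0.77 and Cnmd at 1.28. The median of the 9 genes moved from -0.05 to 0.27 there, and 4 had an unadjusted p under 0.05, against 4493 of 18707 genes. The count over all genes also rested on single mice: 1221 genes were called, and 42 without P-Apex1KO replicate 1, 638 without P-Apex1KO replicate 3, 113 without WT replicate 1 and 185 without WT replicate 2.

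At 14-dpf the P-Apex1KO callus held more of these transcripts than the WT callus, by an amount that depended on how sex was treated. With sex in the model, which leaves the genotype difference to the P-Apex1KO mice and the single WT female, 8 of 9 genes were higher, against 4.28% of all genes. Over all genes 865 were higher and 1424 lower, and 1878 and 766 with library size alone. The 2289 calls became 1206, 1353 and 1277 without WT replicate 2, 3 or 4, and 3773 without P-Apex1KO replicate 2. Without the sex term 4 passed, Matn1, Cnmd, Ucma and Cytl1, against 18.8%. With neither the sex term nor that WT female, chosen after the data were seen, 6 passed, against 3185 of 18101 genes that were higher. All log2 fold changes of the 9 genes were above 0 in all 3 fits, with medians of 3.45, 1.43 and 1.08 in that order. The groups did not overlap for 5 genes (Comp, Cnmd, Ucma, Snorc and Cytl1), against 18.5% of all genes with every P-Apex1KO above every WT mouse. Sex and genotype cannot be told apart in the other 6 mice.

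Cnmd measured 3.02, 26.3, 35.7 and 15.7 CPM in WT and 130.7, 72.2 and 107.1 CPM in P-Apex1KO. The lowest P-Apex1KO mouse was thus above the highest WT mouse, with a log2 fold change of 5.12 (SE 0.65, adjusted p = 0.00514) with sex in the model, 2.39 (0.67, adjusted p = 0.0305) without it, and 2.04 (0.32, adjusted p = 0.00414) without sex and the WT female. Ucma measured 0.243, 3.53, 5.05 and 1 CPM in WT and 17.3, 9.09 and 9.7 CPM in P-Apex1KO, also without overlap. Its log2 fold change was 5.62 (1.19, adjusted p = 0.0284) with sex and 2.33 (0.74, adjusted p = 0.0445) without. Comp measured 123.1, 413.5, 451.9 and 349.6 CPM in WT and 929.4, 491.6 and 997.6 CPM in P-Apex1KO. Its log2 fold change was 2.74 (0.43, adjusted p = 0.00981) with sex and 1.31 (0.44, adjusted p = 0.0552) without. Snorc measured 4.14, 21.6, 23.9 and 22.6 CPM in WT and 45.9, 34 and 40.4 CPM in P-Apex1KO. The 3 male WT mice were close together and below all P-Apex1KO mice, and the log2 fold change was 3.30 (0.22, adjusted p = 0.000534) with sex, 1.19 (0.51, adjusted p = 0.107) without it and 0.87 (0.12, adjusted p = 0.00212) without the WT female as well.

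The aggrecan aggregate overlapped between genotypes at 14-dpf. Acan measured 160.6, 709.6, 935.5 and 692.5 CPM in WT and 1180, 639.7 and 1075 CPM in P-Apex1KO, so P-Apex1KO replicate 2 lay within the range of the WT males. The Acan log2 fold change was 2.61 (SE 0.39, adjusted p = 0.00713) with sex, 0.66 (0.53, adjusted p = 0.369) without it and 0.35 (0.23, adjusted p = 0.282) without the WT female too. Hapln1 measured 46.5, 334.1, 448.5 and 237 CPM in WT and 638.4, 398.3 and 469 CPM in P-Apex1KO, with 3.45 (adjusted p = 0.00534), 0.95 (adjusted p = 0.285) and 0.61 (adjusted p = 0.108) in the same fits. The matrilins overlapped at their edges. Matn1 measured 0.73, 2.14, 2.97 and 3.5 CPM in WT and 9.21, 9.96 and 3.33 CPM in P-Apex1KO, and Matn3 10.95, 96.4, 130.3 and 52.9 CPM in WT and 259.9, 122.5 and 192.5 CPM in P-Apex1KO. Matn1 passed in all 3 fits (3.38, 1.72 and 1.43), and Matn3, of these fits, in the one with sex (4.15, adjusted p = 0.0128). Cytl1 measured 1.02, 2.83, 2.28 and 2.75 CPM in WT and 5.6, 33.7 and 7.47 CPM in P-Apex1KO. Its log2 fold change of 3.95 (1.29) did not pass with sex (adjusted p = 0.101) and the value of 2.85 (0.70) passed without it (adjusted p = 0.0181). Without P-Apex1KO replicate 2, the mouse at 33.7 CPM, Cytl1 passed with sex too (2.69, adjusted p = 0.00201). With sex, Matn1 lost its call when WT replicate 2, 3 or 4 was left out (adjusted p of 0.0572 to 0.0675) and Ucma without WT replicate 2 (adjusted p = 0.0559) or P-Apex1KO replicate 2 (adjusted p = 0.0593).

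**Figure D3:**
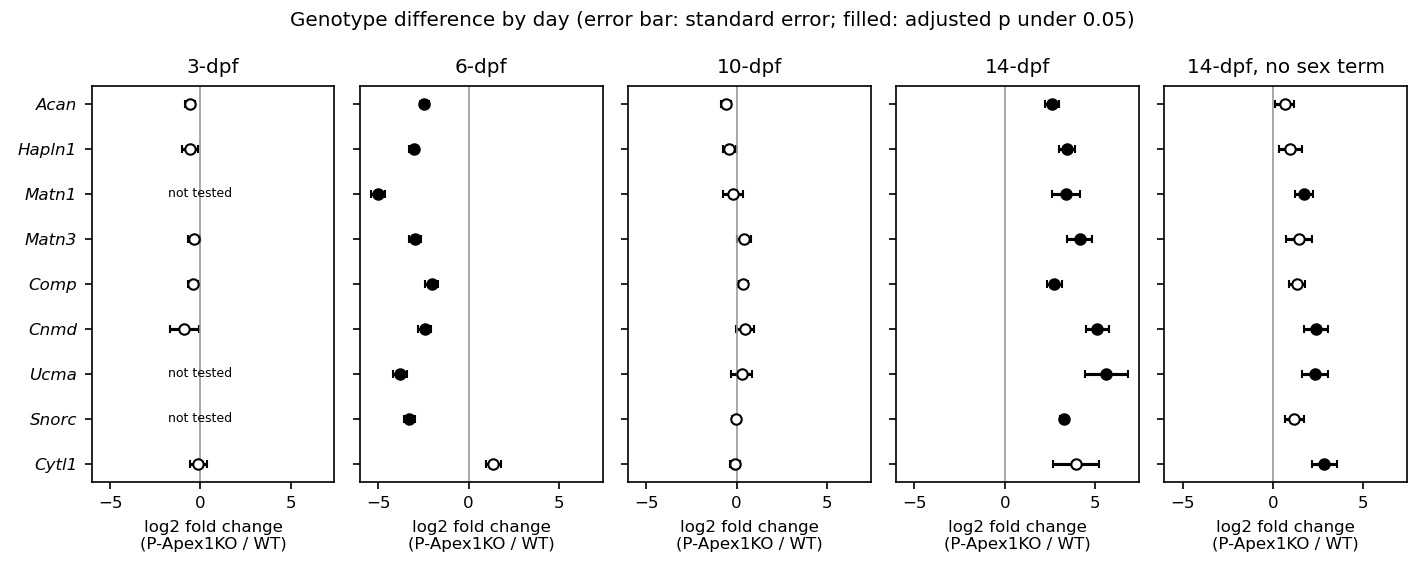
Log2 fold change of P-Apex1KO over WT for the 9 genes at each day, from edgeR with sex in the model and, at the right, at 14-dpf without it; error bars are standard errors and filled points have an adjusted p under 0.05. All 8 filled points at 6-dpf lie between -5.03 and -2.04, and at 14-dpf the points move toward 0 without the sex term, with 4 still filled.

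Between 10- and 14-dpf, 8 of 9 genes fell in WT mice, all but Cytl1, against 4.92% of all genes. The falls ran from 2.76 for Comp to 5.09 for Ucma on the log2 scale, and Acan, for example, fell by 2.93 (SE 0.43, adjusted p = 0.00174). Cytl1 was at -1.44 (adjusted p = 0.163) and passed without P-Apex1KO replicate 2 at 14-dpf (-1.45, adjusted p = 0.00924). In P-Apex1KO mice none of the 9 changes passed, against 0.228% of all genes called lower, and 3 had an unadjusted p under 0.05, against 2811 of 19705 genes. Values for P-Apex1KO lay between -1.57 for Ucma and -0.73 for Cnmd, and Cytl1 was at 1.72 (0.73, adjusted p = 0.316). The lack of a call is no sign of an unchanged level. In P-Apex1KO mice Acan measured 2125 to 3112 CPM at 10-dpf and 639.7 to 1180 CPM at 14-dpf. The share of reads on the 9 genes was 0.651% to 0.968% and 0.205% to 0.355%. Without the sex term the median change in P-Apex1KO was -1.58. None passed, and 8 of 9 had an unadjusted p under 0.05, against 4429 of 19162 genes. Without the sex term and the WT female, 6 of the falls in P-Apex1KO passed, against 500 of 19120 genes called lower. The genotype difference moved upward for all 9 genes (log2 changes of 1.67 to 3.52), and none of these changes passed (0.436% of all genes did). All 9 genes had an unadjusted p under 0.05, against 2577 of 19705 genes. DESeq2 called 5, against 116 of 19705 genes that were higher. Without the sex term the median of these changes was 1.22 in place of 2.47, with 2 of 9 at an unadjusted p under 0.05, against 3096 of 19162 genes. Without WT replicate 1 at 14-dpf the median was 1.58, with 5 of 9, against 2516 of 19662 genes.

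Col2a1, the chain of type II collagen and the main collagen of cartilage, gave a scale within each mouse. It measured 17990 to 34178 CPM in WT and 676.3 to 1225 CPM in P-Apex1KO at 6-dpf, a log2 fold change of -4.68 (SE 0.32, adjusted p = 0.000271), and thus fell by more than every one of the 9 genes except Matn1. The log2 ratio of Acan to Col2a1 was -2.17, -2.04, -2.14, -2.03 and -2.28 in WT and -0.02, 0.42 and 0.04 in P-Apex1KO at 6-dpf. Relative to Col2a1, P-Apex1KO mice therefore held 2.28 more Acan on the log2 scale, and the ratio barely varied within a genotype. The groups were separate for 7 of 9 genes at 6-dpf, all higher in P-Apex1KO, but so were 99.9% of all genes, since Col2a1 fell so far. The exceptions were Matn1 (-0.40 on the log2 scale) and Ucma (0.83), whose groups overlapped.

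The ratios were also apart on days when fewer of the levels were. At 10-dpf Col2a1 measured 12941, 13655, 25111 and 8850 CPM in WT and 3962, 7566 and 4063 CPM in P-Apex1KO, without overlap, with a log2 fold change of -1.62 (SE 0.39, adjusted p = 0.052). The ratios of all 9 genes to Col2a1 were higher in P-Apex1KO without overlap, by 0.99 for Acan to 2.26 for Cnmd, against 69.6% of all genes. The ratio of Comp, for example, was -3.14, -3.03, -3.06 and -2.88 in WT and -0.98, -1.39 and -0.71 in P-Apex1KO on the log2 scale. At 14-dpf Col2a1 measured 533.6, 2525, 3376 and 2287 CPM in WT and 1708, 2367 and 1538 CPM in P-Apex1KO, so its groups overlapped. The fold change of Col2a1 there was 1.84 on the log2 scale (adjusted p = 0.0132) with sex in the model and turned to -0.18 (adjusted p = 0.825) without it. The ratio was then higher without overlap for 7 of 9 genes, against 0.786% of all genes. In WT replicate 1 the low Col2a1 raised the ratio of every gene that was not low with it. The 0.786% thus depends on that mouse and is no measure of chance for genes that vary with Col2a1. For Acan the WT female was no longer apart: the log2 ratio was -1.73 in that mouse and -1.83, -1.85 and -1.72 in the other WT mice. Cnmd had log2 ratios of -7.43, -6.58, -6.56 and -7.18 in WT and -3.71, -5.03 and -3.84 in P-Apex1KO, a difference of 2.74. Acan (0.81) and Comp (1.33) overlapped at 14-dpf through P-Apex1KO replicate 2.

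None of the 36 ratio comparisons passed after adjustment in the exact two-sided permutation test, in which the smallest p was 0.0286 at 3-dpf, 0.0357 at 6-dpf and 0.0571 at 10- and 14-dpf. Even with every test at the smallest p of its day, the smallest adjusted p over the 36 tests would have been 0.0571, so none could pass on any day. Every comparison without overlap at 6-dpf reached the smallest p (adjusted p = 0.0894 in this exact test). At 3-dpf no ratio was separate, with differences from -0.39 to 1.05. The other collagens of cartilage were set against Col2a1 in the same way. All 6 of Col9a1, Col9a2, Col9a3, Col11a1, Col11a2 and Col27a1 had a higher ratio to Col2a1 in P-Apex1KO without overlap at 6-dpf (by 1.18 to 2.56 on the log2 scale), as did 99.9% of all genes, and at 10-dpf (by 0.88 to 1.92), as did 69.6%. At 14-dpf the 3 collagen IX chains did (by up to 1.54), and Col11a1, Col11a2 and Col27a1 did not (down to -1.97). Over all genes 0.786% did, a share that depends on the low Col2a1 of WT replicate 1.

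**Figure D4:**
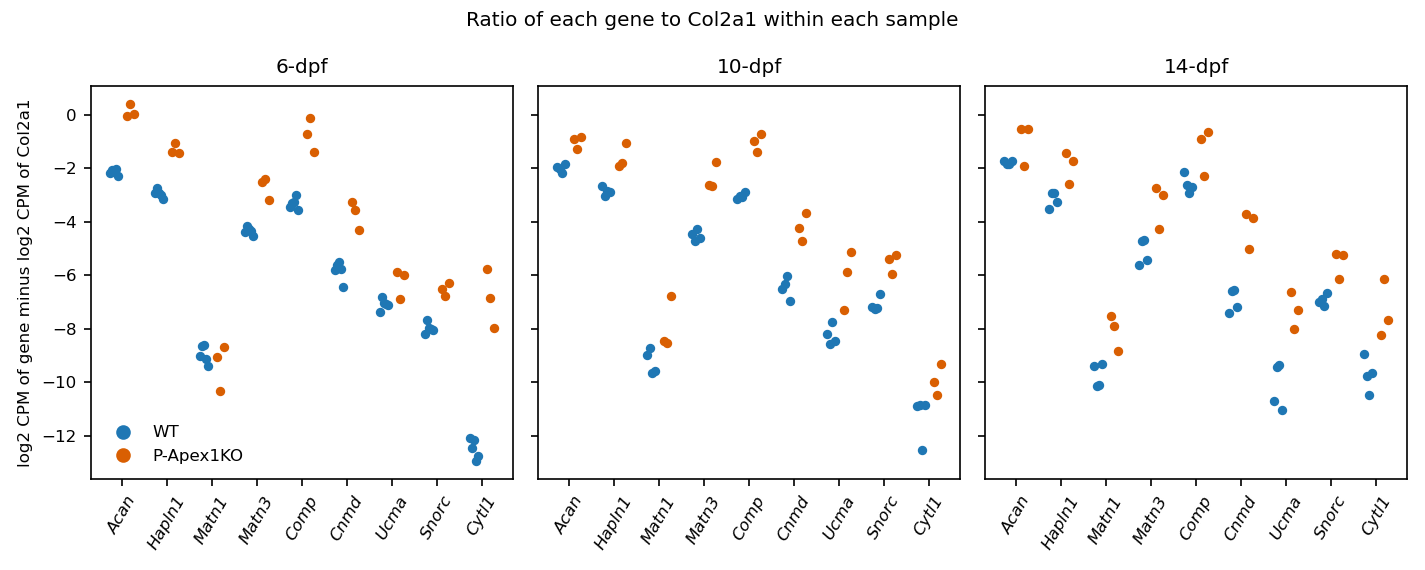
Log2 CPM of each gene minus log2 CPM of Col2a1 (prior count 2) in every mouse at 6-, 10- and 14-dpf; points are mice. P-Apex1KO mice lay above WT mice for 7, 9 and 7 of the 9 genes without overlap on these days, against 99.9%, 69.6% and 0.786% of all genes. The last share depends on the low Col2a1 of WT replicate 1 at 14-dpf. The Acan ratio of WT mice stayed between -2.28 and -1.72.

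Within a group of mice, the genes also varied together. After the mean of each genotype and day was removed from log2 CPM, the 8 genes other than Cytl1 correlated pairwise with a median r of 0.76 (range 0.27 to 0.93, 28 pairs, 30 mice), and with Col2a1 with a median r of 0.76. Cytl1 correlated with the others at 0.12 to 0.37. Of 15884 other genes, the closest to the mean deviation of the 9 were Col9a1 (r = 0.93), Col9a3 (0.93), Meltf (0.92), Col9a2 (0.90), Chrdl2 (0.85), Clec3a, Gm45397 and Itih6 (0.84), Col2a1 and Susd5 (0.82). These are descriptions over mice that share library and dissection, and WT replicate 1 at 14-dpf, 1.79 below its group mean on the log2 scale, is the most distant mouse.

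The genes that act with these proteins moved less evenly at 6-dpf. The background of each count here is 5.61% of all genes lower and 5.31% higher. All 7 cartilage collagens were lower in P-Apex1KO, with a median log2 fold change of -2.97, from Col2a1 (-4.68) to Col27a1 (-2.21, SE 0.18, adjusted p = 0.00041). Of 27 genes for the synthesis of chondroitin sulfate, the chains that aggrecan carries, 17 were lower and none higher (median -0.57). Xylt1, which starts the chains, fell from 448.4 ± 103.3 CPM (SD, n = 5) to 99.9 ± 11 CPM (SD, n = 3), a log2 fold change of -2.13 (edgeR adjusted p = 0.000576), and Csgalnact2 fell least (-0.31, adjusted p = 0.0365). Of 12 chondrocyte transcription factors tested, 9 were lower (median -0.86), from Foxa3 (-3.21, adjusted p = 0.00225) to Sox6 (-0.47, adjusted p = 0.0175). Of 17 other cartilage matrix genes tested, 10 were lower (median -0.87), from Clec3a (-4.09, adjusted p = 0.00053) to Itgbl1 (-0.50, adjusted p = 0.0395).

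The partners of the aggregate that other tissues also make went both ways at 6-dpf. Of 9 tested hyaluronan synthases, hyaluronan-binding proteins and relatives of aggrecan and link protein, 2 were lower and 1 higher. Over all genes 5.61% were lower and 5.31% higher, which is also the background of the counts that follow for relatives and proteases. Has1, a hyaluronan synthase, rose from 1.64 to 6.82 CPM (log2 fold change 2.11, SE 0.26, adjusted p = 0.00205), and Hapln4 was the lowest (-1.26, adjusted p = 0.0227). Of 9 relatives of the 9 genes, Matn4 (-2.27, adjusted p = 0.00252) and Mgp, a Gla protein like Ucma (-0.82, adjusted p = 0.0102), were lower. Of 9 proteases that cleave aggrecan or Comp, Mmp3 was higher (1.88, adjusted p = 0.00711), 1 further gene was higher and Adamts7 was lower (-0.72, adjusted p = 0.0408).

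At 14-dpf these lists went in different directions. With sex in the model 5 cartilage collagens were higher and 2 lower, from Col9a3 (3.48, SE 0.36, adjusted p = 0.00225) to Col11a2 (-1.90, 0.29, adjusted p = 0.00792). Over all genes 4.28% were higher and 7.04% lower with sex, the background of every such count at 14-dpf below. Without the sex term none was higher and 2 were lower, where 18.4% of all genes were lower and 18.8% higher, which is the background of every count without sex in the lists that follow. Of 17 other cartilage matrix genes 8 were higher with sex and 9 without it, among them Prelp (1.43 with sex, adjusted p = 0.0167, and 1.14 without, adjusted p = 0.00212) and Clec3a (4.39, adjusted p = 0.00838, and 1.70, adjusted p = 0.0905). Of 27 chondroitin sulfate genes 4 were lower and 1 higher with sex, and 12 were lower and 2 higher without, with Chst13 lowest (-1.72, adjusted p = 0.00971) and Xylt1 highest (1.12, adjusted p = 0.0107). Of the transcription factors, 5 were higher and 2 lower with sex and 3 higher and 2 lower without, from Foxa3 (4.11, adjusted p = 0.00685) to Runx2 (-1.29, adjusted p = 0.0147). Bcan (-2.48) and Hapln4 (-2.83) were lower with and without sex, and so were the proteases Adamts9 (-1.74) and Adamts4 (-0.86). Of the 9 relatives 1 was higher with sex, Mgp (1.04, adjusted p = 0.0155), and 4 without it, where Mgp did not pass (0.34, adjusted p = 0.279).

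Markers of other callus cells gave the setting of these values. Over all genes 5.61% were lower and 5.31% higher at 6-dpf, and 651 of 18910 were lower at 10-dpf. Hypertrophic chondrocyte markers were lower for 5 of 7 genes at 6-dpf, with Col10a1, the collagen of hypertrophic cartilage, at -3.96 (adjusted p = 0.000623) and Ibsp at -1.48 (adjusted p = 0.0276), and for 3 of 7 at 10-dpf. At 14-dpf 1 was lower and 2 were higher, with Pth1r lower (-1.18, adjusted p = 0.00314) and Col10a1 higher in the fit with sex (2.46, adjusted p = 0.0234) but not without it (0.63, adjusted p = 0.397). Osteoblast markers were lower for 5 of 7 genes at 6-dpf, from Ifitm5 (-1.95, adjusted p = 0.00469) to Dmp1 (-0.63, adjusted p = 0.00981), for 5 of 7 at 10-dpf (median log2 fold change -0.98), when none of the 9 matrix genes was called, and for 4 of 7 at 14-dpf, from Col1a1 (-2.55, adjusted p = 0.000883) to Sp7 (-2.02, adjusted p = 0.000586). Their sum at 14-dpf was 66473 to 94014 CPM in WT and 15397 to 16576 CPM in P-Apex1KO. Muscle markers summed to 1582 to 5708 CPM in WT and 3909 to 14009 CPM in P-Apex1KO at 14-dpf, with the highest WT value in replicate 1, the mouse with the lowest matrix genes. Of the 14 muscle markers 0 passed at 14-dpf with sex, 8 were higher without it and 14 without the WT female as well. That last fit called 3185 of 18101 genes higher. At 6-dpf Pvalb (1.78, adjusted p = 0.0373) and Mylpf (1.01, adjusted p = 0.0159) had the largest and smallest fold change of the muscle markers that were higher.

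Tendon, which also makes Comp, was checked by its own markers. Their sum overlapped between genotypes at 6-dpf (1673 to 2918 CPM in WT, 1133 to 2139 CPM in P-Apex1KO). There 2 of 7 were higher, Angptl7 (2.61, adjusted p = 0.00687) and Kera (0.72, adjusted p = 0.0104), against 5.31% of all genes. At 14-dpf 1 was higher with sex, Kera (1.66, adjusted p = 0.0167), and 4 without. Lymphocyte markers were higher for 3 of 8 genes at 6-dpf, against the same 5.31%, from Cd3d (1.46, adjusted p = 0.0142) to Cd3e (1.16, adjusted p = 0.0177). At 14-dpf Nkg7 was higher with sex (1.56, adjusted p = 0.036) and 8 of 8 were without. No marker on these lists was without a read in all mice of a group. The part of these cells in the values of the 9 genes was not tested.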

How the data were processed

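RNA of 30 fracture calluses was depleted of ribosomal RNA and made into stranded libraries by the authors, who aligned reads to mm39 with STAR 2.7.0d and counted them on Ensembl genes with featureCounts. The authors deposited raw whole-number counts per gene and sample, without normalization. Genotype, day and sex came from the labels. No 2 libraries of a group were alike within sampling noise.

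Symbols, positions and exon lengths came from GENCODE M39 on GRCm39, which held 54749 of the 55416 gene IDs. Each day was fitted with edgeR 4.0.16 (filterByExpr, TMM, group and sex, robust quasi-likelihood F test, Benjamini-Hochberg over all genes, threshold 0.05), and 3- with 6-dpf and 10- with 14-dpf in models of 4 groups. Sample names change between 6- and 10-dpf, so a batch and time cannot be told apart there and this step was not tested. Ratios used log2 CPM (prior count 2) and exact permutation tests in scipy 1.17.1. DESeq2 1.42.0 was an alternative. The fits were tested on simulated counts. Errors are standard errors of log2 fold changes, and 3 to 5 mice per group limit the precision.

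The genes, lists and motifs were chosen with earlier results of these data known. Named were the 9 genes, Col2a1, Apex1, of each other list the called genes with the lowest and highest fold change at 6- and 14-dpf, and the 10 genes most like the 9 over mice. Replicate numbers were checked for pairing: at 3-dpf the deviations of same-numbered mice correlated at 0.15 to 0.52, and with the number as a block no call among the 9 genes changed at 3-dpf, where 1 of all genes was called in place of 0, while the changes of the genotype difference from 3- to 6-dpf lost their calls.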

Additional observations from a re-analysis of the deposited data

Results flagged for a closer look

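In groups of 4 or 5 mice, 7 of 45 gene and group combinations had a mouse far from the rest on the log2 scale. Chance gives about 1 in 20 for independent values. These genes share mice and vary together, and some values rest on few reads, so no excess can be read from the count. At 14-dpf WT replicate 1 was low for Acan (161 CPM) and Snorc (4.14 CPM), and this mouse is the only WT female of that day. At 10-dpf WT replicate 3 was high for Snorc (168 CPM). At 3-dpf WT replicate 4 was low for Matn3 (1.85 CPM) and Cnmd (0 CPM), WT replicate 1 held the only Matn1 reads of its group (0.0683 CPM), and the library labelled P-Apex1KO replicate 3 was high for Ucma (0.085 CPM). The last 2 values rest on 3 reads each.

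The genotype difference changed between 3- and 6-dpf by a test of the change itself for Hapln1 (-2.38), Matn1 (-6.41) and Matn3 (-2.59) on the log2 scale. The value for Matn1 is a fitted one against libraries of 0 to 3 reads at 3-dpf and is no bound, and none of the 3 passed with the replicate number as a block.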

How the results depend on the processing

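At 6-dpf 8 of the 9 genes were called and 5 were with a replicate block in place of sex, in which Comp, Cnmd and Ucma lost their call. With that block 408 of 21549 genes were lower at 6-dpf. At 14-dpf the count was 8 with sex, 5 with no filter, 4 without the sex term and 1 with the replicate block. Over all genes, 1031 of 32988 were higher at 14-dpf with no filter and 1348 of 20228 with the block. For the change of the genotype difference from 3- to 6-dpf the count over all 9 genes was 3, Matn1 among them. It was 6 with DESeq2, Ucma among them, against 521 of 20468 genes that were lower. It was 0 with all samples in one model, 0 with no filter and 0 with the block. For the change from 10- to 14-dpf it was 0, and 5 with DESeq2, against 116 of 19705 genes that were higher. In P-Apex1KO from 10- to 14-dpf it was 0, and 6 without sex and WT replicate 1. Leaving out 1 mouse gave 8 to 9 genes at 6-dpf, 0 to 2 at 10-dpf, 6 to 8 at 14-dpf, 0 at 3-dpf, 8 to 9 from 3- to 6-dpf in either genotype, 0 to 4 for the change of the difference from 3- to 6-dpf, 8 to 9 from 10- to 14-dpf in WT, and 0 in P-Apex1KO and for the change of the difference from 10- to 14-dpf. All counts from 3- to 6-dpf, also those for the change of the difference, include Matn1, Ucma and Snorc. These 3 genes entered those fits only through the 6-dpf mice, so their calls are no support. The ratios could not pass in any setting, so their count of 0 says nothing of stability. The cause of these moves was not tested. The 14-dpf fit without WT replicate 1 could not be made with sex, since that mouse is the only WT female.

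No called fold change of the 9 genes turned its sign in these settings. That of Col2a1 at 14-dpf did, from 1.84 to -0.18 without sex, -0.50 without sex and WT replicate 1, and -0.39 with all samples in one model. Over all genes, leaving out 1 mouse gave 0 to 10 calls at 3-dpf, 890 to 2359 at 6-dpf, 42 to 1827 at 10-dpf and 1206 to 3773 at 14-dpf, 4735 to 6819 and 1223 to 3258 from 3- to 6-dpf in WT and P-Apex1KO, fewer than 111 to 450 for the change of the difference between them, 1162 to 2760 and 0 to 252 from 10- to 14-dpf, and 2 to 206 for that change. The calls at 3-dpf were 0, and 85 with DESeq2, 38 with all samples in one model, 4 with no filter and 1 with the block. At 6-dpf they were 2212, and 3594 with library size alone and 677 with the block, at 10-dpf 1221, and 2187 with DESeq2 and 750 without sex, and at 14-dpf 2289, and 6849 without sex, 6188 with all samples in one model, 5922 with sex estimated on both days and 6181 without sex and WT replicate 1. Calls from 3- to 6-dpf in P-Apex1KO were 2867, and 1621 with the block. The change of the genotype difference from 3- to 6-dpf gave 267, and 718 with DESeq2, 433 with library size alone, 410 with all samples in one model and 90 with the block. From 10- to 14-dpf WT gave 2190, and 1110 without sex and WT replicate 1, P-Apex1KO gave 51, and 672 without sex, 656 with the block, 633 without sex and WT replicate 1, 550 with DESeq2, 507 with all samples in one model and 217 with no filter, and the change of the difference gave 86, and 465 with DESeq2, 207 with no filter and 8 with library size alone. Library size alone turned 651 lower and 570 higher at 10-dpf into 464 and 849, 3085 lower and 3159 higher from 3- to 6-dpf in WT into 6984 and 1902, and 970 lower and 1220 higher from 10- to 14-dpf in WT into 1241 and 788. The deviations of same-numbered mice correlated at -0.12 to 0.11 at 6-dpf, -0.25 to 0.28 at 10-dpf and -0.37 to -0.11 at 14-dpf. Over all days 3 of 13 pairs were best partners.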
